A study of Homo sapiens with 16 samples.

Results

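Kinesins are motor proteins that walk along microtubules, and the centromere proteins (CENP) build the chromosomal site to which microtubules attach. Both were followed here in L1236 cells, a human cell line established from Hodgkin lymphoma. A gene was included when its gene-level probe set carried a single symbol that began with KIF and a number, or with CENP and a single letter, with antisense genes and pseudogenes left out. The rule found 59 of 33297 gene-level probe sets, which stand for 56 of the 18395 genes with a symbol. They are 38 kinesins and 18 centromere proteins. By textbook role, 13 of the kinesins act mainly in mitosis, 15 mainly carry cargo and 10 have other roles, many of them in cilia.

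All cells carried a retrovirus that delivers a doxycycline-inducible short hairpin RNA against RELB, an NF-kB subunit of the alternative pathway. RNA came from 4 arrays labelled infected and uninduced and 4 labelled infected and induced, the latter after doxycycline. No array without the virus was used here, so both groups share the infection. Each group has 1 array for each combination of a B code (B_1 or B_4) and a last number (1 or 4). The labels give no meaning for these codes and do not say that arrays sharing them are paired, and no label speaks of separate cultures. A p-value therefore sets a difference only against the scatter among arrays, and that scatter may be technical. Each array has a gene-level and an exon-level summary, and the 4428 features in both were identical. Values are log2 signals, with column medians of 5.79 to 5.88. Precision is limited by the 4 arrays of a group.

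The arrays stood apart by more than their labels say. RELB itself had 7.40 ± 0.13 in the arrays labelled uninduced and 7.25 ± 0.11 in those labelled induced (SD, n = 4 each; exact permutation test, two-sided, p = 0.171, where 0.0286 is the smallest p this design allows). The knockdown was thus not detectable in its target, and the groups are named by label throughout. TNFRSF8 (CD30), the defining surface marker of Hodgkin cells, was 6.89 in the arrays labelled uninduced and 11.59 in those labelled induced, and CD79A, a B-cell receptor component, was 5.73 and 11.04. Of the other Hodgkin and B-lineage genes, PAX5, TRAF1 and IRF4 were called higher, FUT4 (CD15) lower (-0.47 ± 0.09, adjusted p = 0.00127), CCL17 did not pass (-0.04) and MS4A1 (CD20) was too dim to test (4.49 and 4.52). Means over 8 Hodgkin and B-lineage genes ran from 7.02 to 7.12 against 8.83 to 9.14. Means over T-cell (4.51 to 4.71), myeloid (4.76 to 5.04) and fibroblast (4.89 to 5.08) markers were low on all 8 arrays. Single genes of these lists stood higher, such as COL1A1 (6.73 and 6.69) and TYROBP (6.03 and 5.97). PDGFRB was called higher (0.59 ± 0.08, adjusted p = 8.46e-05) and ITGAM lower (-0.40 ± 0.13, adjusted p = 0.0215). The part of these marker differences in the results on motor and centromere genes was not tested.

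In a dividing cell, mitotic kinesins push spindle poles apart, move chromosomes and complete cleavage, while transport kinesins carry vesicles, organelles and RNA at all times. At the centromere, nucleosomes with the histone CENP-A are read by CENP-C and by a set of small complexes (CENP-H/I/K/M, CENP-L/N, CENP-O/P/Q/U/R and CENP-T/W/S/X), which together form the constitutive inner kinetochore. Many mitotic genes are transcribed late in the cell cycle, and promoters of such genes often hold a cell cycle homology region (CHR) and CCAAT boxes.

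Promoter windows are shown first because mitotic kinesins with both of these motifs are found among genes that were higher and among genes that were lower in the arrays labelled induced. RefSeq (GRCh38.p14) gave the 250 bases before each annotated start for 47 of the 56 genes (58 windows). For all genes it gave 35116 windows of 27305 genes. A gene was counted as holding a motif when any of its windows did, so both motifs of a gene could lie in different windows. The letters TTTGAA or TTCGAA (CHR) and CCAAT were searched on both strands. Of the 13 mitotic kinesins, 6 held a CHR match (46.2%, against 17.2% of all genes), 9 held CCAAT (69.2% against 37.0%), and 5 held both (38.5% against 7.38%). Of 12 transport kinesins with a window, only KIF5B held a CHR match, and 4 held CCAAT. Among 15 centromere proteins, only CENPC held a CHR match, and 9 held CCAAT. The 5 mitotic windows with both are KIF11 (chr10:92592880-92593129, plus strand), KIF18A (chr11:28108157-28108406, minus strand), KIF22 (chr16:29790501-29790750, plus strand), KIF23 (chr15:69414099-69414348, plus strand) and KIF4A (chrX:70289854-70290103, plus strand). Each is printed in the gene's own direction, and capitals mark the matches; ATTGG and TTCAAA are CCAAT and TTTGAA read on the other strand.

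KIF11: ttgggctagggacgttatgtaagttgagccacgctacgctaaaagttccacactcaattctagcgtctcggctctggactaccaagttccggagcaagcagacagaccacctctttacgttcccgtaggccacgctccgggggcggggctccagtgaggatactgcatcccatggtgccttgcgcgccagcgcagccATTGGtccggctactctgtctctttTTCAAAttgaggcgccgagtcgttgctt
KIF18A: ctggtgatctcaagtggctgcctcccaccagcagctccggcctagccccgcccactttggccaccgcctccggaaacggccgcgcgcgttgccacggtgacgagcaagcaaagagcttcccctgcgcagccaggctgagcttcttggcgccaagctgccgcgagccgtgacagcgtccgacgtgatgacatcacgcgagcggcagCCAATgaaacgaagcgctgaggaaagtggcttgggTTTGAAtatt
KIF22: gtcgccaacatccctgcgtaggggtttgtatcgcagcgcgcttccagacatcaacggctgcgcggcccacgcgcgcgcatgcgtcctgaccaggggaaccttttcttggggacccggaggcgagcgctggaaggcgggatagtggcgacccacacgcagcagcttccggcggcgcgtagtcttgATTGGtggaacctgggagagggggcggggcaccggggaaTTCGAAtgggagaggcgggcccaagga
KIF23: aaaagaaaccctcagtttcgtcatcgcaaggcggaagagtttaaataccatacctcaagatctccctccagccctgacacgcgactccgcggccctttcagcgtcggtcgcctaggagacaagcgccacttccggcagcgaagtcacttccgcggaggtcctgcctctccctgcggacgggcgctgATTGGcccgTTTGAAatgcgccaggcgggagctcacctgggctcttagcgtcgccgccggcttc
KIF4A: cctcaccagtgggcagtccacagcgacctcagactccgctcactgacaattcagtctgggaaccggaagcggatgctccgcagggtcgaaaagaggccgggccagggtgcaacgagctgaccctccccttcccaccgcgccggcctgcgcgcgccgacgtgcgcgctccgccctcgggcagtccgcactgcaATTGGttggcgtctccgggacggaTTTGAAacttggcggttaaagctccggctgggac

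In these 5 windows the CCAAT match lies upstream of the CHR match, whose first base is 10 (KIF18A) to 55 (KIF23) bases before the start. KIF11, KIF18A and KIF22 were higher in the arrays labelled induced, and KIF23 and KIF4A were lower. A CHR match was found in 4 of the 7 mitotic kinesins that rose and in 2 of the 4 that fell, so matches were found in both directions. A match is a description of letters, not of a bound factor.

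Between the induction labels, 34 of the 55 tested genes passed the threshold (limma, adjusted p under 0.05), 16 higher and 18 lower in the arrays labelled induced. That is 61.8%, beside 55.5% of all 13796 tested genes (27.1% higher and 28.4% lower), so the share called was near the background. KIF13A, a vesicle motor, stayed below the filter on dim genes, with means of 4.12 and 4.17. By class, mitotic kinesins were mixed (7 higher, 4 lower, 2 not passing), transport kinesins were called lower more often than higher (2 higher, 6 lower, 6 not passing), other kinesins were mostly not called (0, 2 and 8), and centromere proteins were split (7, 6 and 5). The median absolute difference was 0.56 for mitotic kinesins, 0.70 for transport kinesins, 0.13 for the others and 0.63 for centromere proteins, against 0.30 for all genes. Values of the groups did not overlap for 31 of the 55, beside 49.8% of all genes. In RNA of whole cultures, fewer cells in a phase of the cycle and less RNA per cell cannot be told apart.

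**Figure D1:**
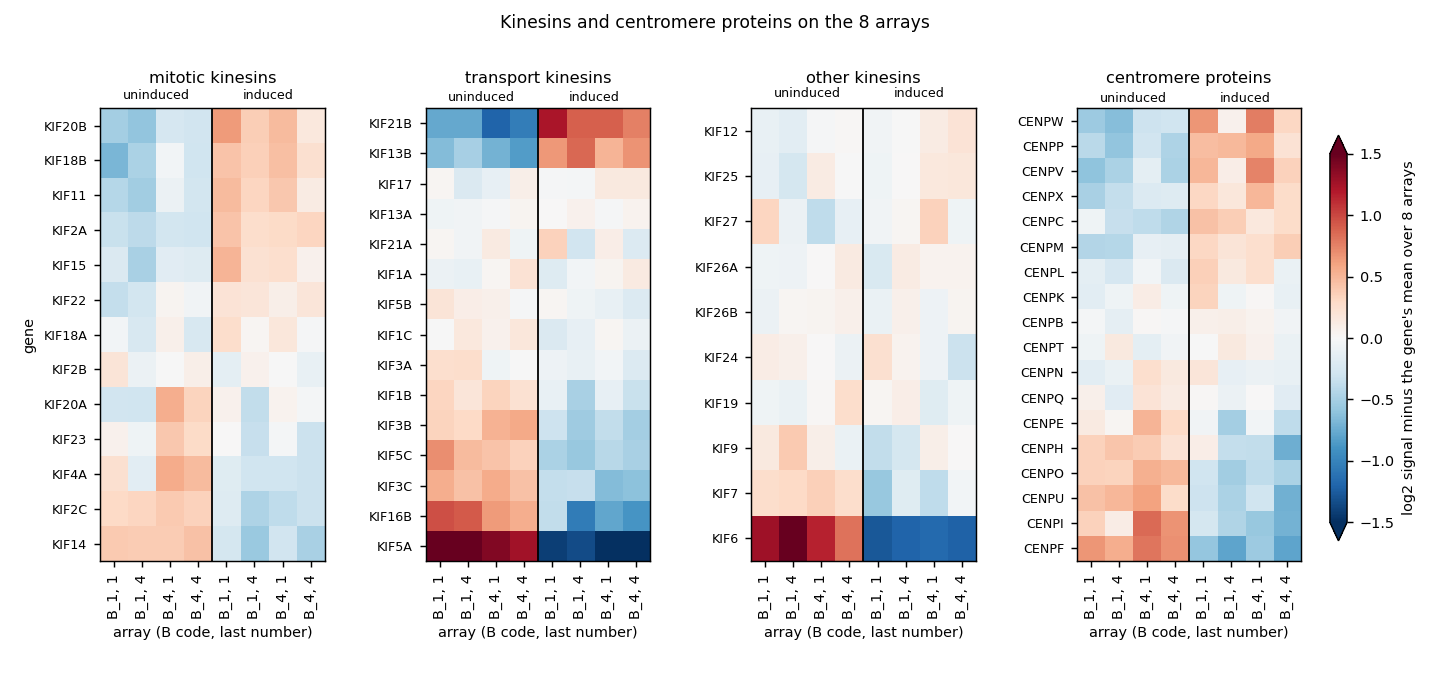
Log2 signal of each gene minus its mean over the 8 arrays (colour, clipped at 1.5 log2 units either way), with genes in rows by class and arrays in columns by induction label, B code and last number. KIF5A, KIF6 and KIF21B have the strongest contrast between the labels, and in the mitotic and centromere panels the colours of the uninduced columns change between B_1 and B_4.

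Mitotic kinesins did not move as a class. The 7 that rose were KIF20B, KIF18B, KIF11, KIF2A, KIF15, KIF22 and KIF18A, by 0.83 to 0.22 log2 units, and the 4 that fell were KIF14, KIF2C, KIF4A and KIF23, by 0.80 to 0.35. Of the 13, 0 were called with a 2-fold difference, beside 16.5% of all genes. Their median was 0.22, against 0.02 for all genes. Per-array values below follow the order B_1 with last number 1, B_1 with 4, B_4 with 1 and B_4 with 4.

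KIF11 and KIF15, which act in the bipolar spindle, rose. KIF11, the tetrameric motor that slides antiparallel microtubules and pushes the poles apart, had signals of 8.43, 8.35, 8.77 and 8.59 in the arrays labelled uninduced and 9.34, 9.18, 9.27 and 8.99 in those labelled induced. All induced values lay above all uninduced ones, and the B_1 uninduced arrays were the lowest; the difference was 0.66 ± 0.10 (SE, adjusted p = 0.000224). KIF15, which can stand in for KIF11, had 6.96, 6.69, 7.0 and 6.98 in the arrays labelled uninduced and 7.68, 7.41, 7.43 and 7.23 in those labelled induced. It also separated the labels, with a difference of 0.53 ± 0.10 (adjusted p = 0.000996), although within B_4 alone the adjusted p was 0.0513.

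Microtubule-shortening motors went both ways. KIF2A, which depolymerises ends at spindle poles and also acts in neurons, had 9.57, 9.52, 9.63 and 9.61 in the arrays labelled uninduced and 10.33, 10.17, 10.20 and 10.23 in those labelled induced. The labels were far apart relative to the scatter, with a difference of 0.65 ± 0.08 (adjusted p = 4.45e-05). KIF2C (MCAK), the related depolymerase at centromeres, went the other way, with 9.38, 9.41, 9.48 and 9.43 in the arrays labelled uninduced and 8.89, 8.62, 8.70 and 8.77 in those labelled induced. Its groups did not overlap either, and the difference was -0.68 ± 0.09 (adjusted p = 5.04e-05). The third relative, KIF2B, did not pass (-0.10 ± 0.10, adjusted p = 0.44).

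KIF18B, which shortens the astral microtubules facing the cell cortex, had 6.85, 7.06, 7.50 and 7.24 in the arrays labelled uninduced and 7.97, 7.90, 7.98 and 7.78 in those labelled induced. The lowest values were the B_1 uninduced arrays, and the difference was 0.74 ± 0.12 (adjusted p = 0.000297); a second probe set of the gene gave 0.65. KIF18A, which damps the movements of aligned chromosomes, differed by only 0.22 ± 0.08 (adjusted p = 0.0334), with overlapping groups. That call was lost when any of 6 arrays was left out (uninduced or induced replicate 1, 2 or 4), with adjusted p of 0.0547 to 0.0977.

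Both chromokinesins, which bind chromosome arms, were called, in opposite directions. KIF22 was 0.33 ± 0.10 higher (adjusted p = 0.015), with 0.33 at a second probe set. Its call was lost without uninduced replicate 1, uninduced replicate 2 or induced replicate 1 (adjusted p 0.0637, 0.056 and 0.0571). KIF4A, which also sets the length of the spindle midzone with PRC1, had 9.43, 9.03, 9.75 and 9.66 in the arrays labelled uninduced and 9.0, 8.89, 8.90 and 8.87 in those labelled induced. One uninduced array, B_1 with last number 4, came close to the induced values, and the difference was -0.56 ± 0.12 (adjusted p = 0.00243). A probe set that KIF4A shares with its near-identical copy KIF4B also gave -0.56, so the signals of the pair cannot be told apart with certainty.

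The cleavage motors were split as well. KIF20B, a late cytokinesis motor, had 7.12, 7.03, 7.37 and 7.34 in the arrays labelled uninduced and 8.27, 8.0, 8.11 and 7.79 in those labelled induced. Its labels were separate, with a difference of 0.83 ± 0.11 (adjusted p = 7.95e-05). KIF14, which brings citron kinase to the midbody, fell, with 9.57, 9.56, 9.56 and 9.61 in the arrays labelled uninduced and 8.91, 8.62, 8.89 and 8.69 in those labelled induced. The uninduced values lay within a narrow band (SD 0.02) and all induced values were below it, a difference of -0.80 ± 0.09 (adjusted p = 1.61e-05). KIF23, the motor of centralspindlin, was -0.35 ± 0.10 (adjusted p = 0.0114), and the call was lost without uninduced replicate 4 (adjusted p 0.0539) and under median centring (0.119). KIF20A, which carries the chromosomal passenger complex to the midzone, had 8.02, 8.01, 8.86 and 8.65 in the arrays labelled uninduced and 8.38, 7.95, 8.37 and 8.28 in those labelled induced. The uninduced B_1 arrays were low and the uninduced B_4 arrays were the highest of all 8. The overall difference of -0.14 ± 0.13 did not pass (adjusted p = 0.381; 95% interval -0.42 to 0.14).

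**Figure D2:**
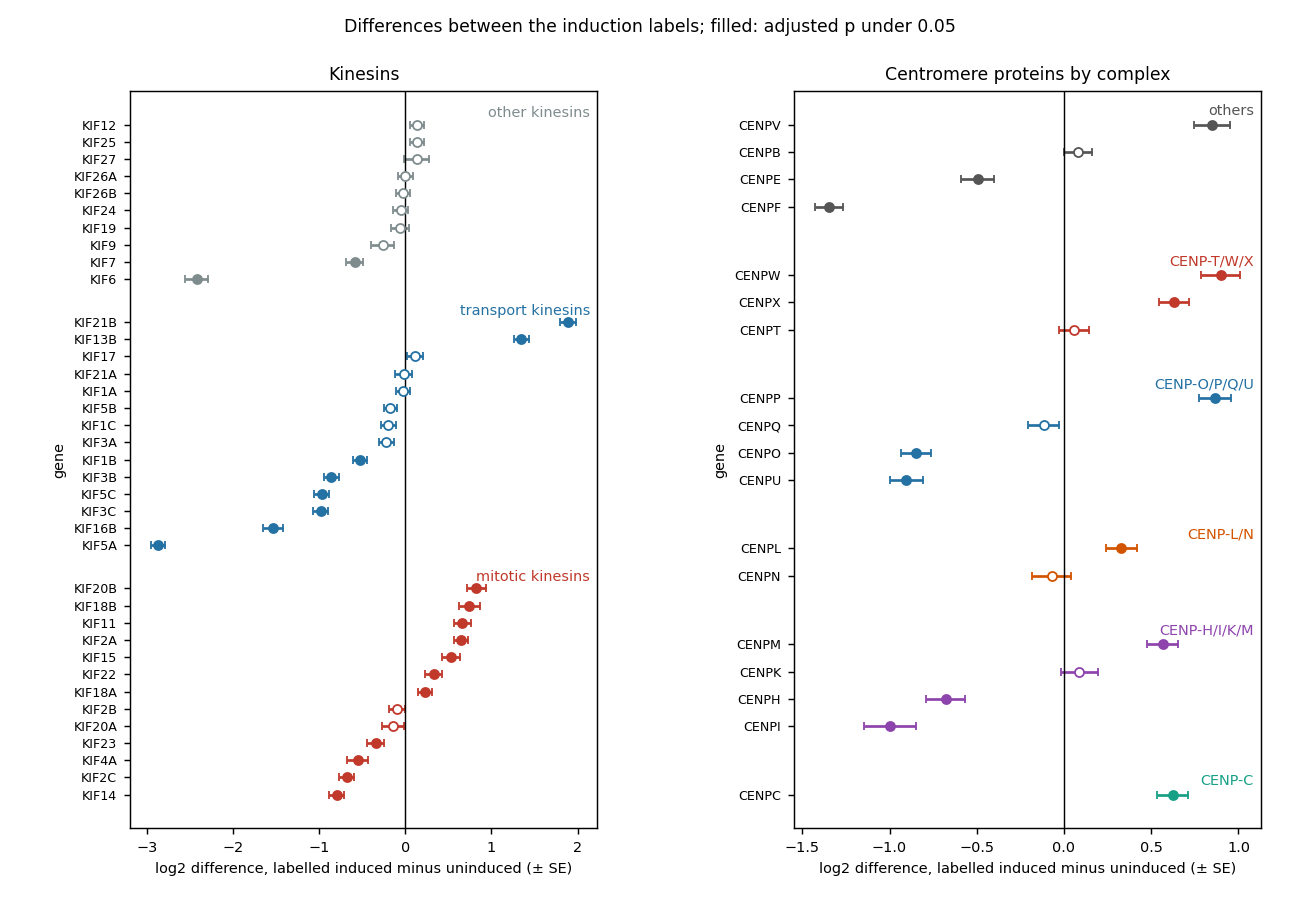
Log2 difference, arrays labelled induced minus uninduced, for each tested gene (points, with SE as bars; filled where the adjusted p was under 0.05), for kinesins by class at left and centromere proteins by complex at right. Transport kinesins range from -2.87 (KIF5A) to 1.89 (KIF21B), mitotic kinesins stay between -0.80 and 0.83, and called genes of the CENP-H/I/K/M and CENP-O/P/Q/U complexes lie on both sides of 0.

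Transport kinesins included the largest difference in each direction among the 55 genes. Of the 14 tested, KIF5A, KIF16B, KIF3C, KIF5C, KIF3B and KIF1B were lower in the arrays labelled induced and KIF21B and KIF13B were higher. Called with a 2-fold difference were 4 of the 14, beside 16.5% of all tested genes. The class median was -0.21.

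KIF5A, a heavy chain of conventional kinesin best known from neurons, had 8.06, 8.04, 7.88 and 7.75 in the arrays labelled uninduced and 5.08, 5.16, 4.99 and 5.0 in those labelled induced. The 8 values formed a high and a low set with no overlap. The difference was -2.87 ± 0.08 (adjusted p = 3.67e-10), a 7.32-fold lower signal, and a second KIF5A probe set gave -2.79. The induced means (5.06, and 4.84 at the second probe set) were little above the filter level for gene means (4.78), so the fold is approximate. KIF5C, another neuronal heavy chain, had 5.93, 5.71, 5.67 and 5.58 in the arrays labelled uninduced and 4.76, 4.67, 4.82 and 4.75 in those labelled induced. The groups did not overlap, with a difference of -0.97 ± 0.09 (adjusted p = 3.66e-06). Its induced mean lay below the filter level for gene means (4.78), so it was tested only through its uninduced signal, and a signal that dim can understate the difference. KIF5B, the heavy chain used by most cell types, had 10.05, 9.95, 9.93 and 9.83 in the arrays labelled uninduced and 9.88, 9.78, 9.73 and 9.64 in those labelled induced. Differences between arrays of the same codes lay between -0.19 and -0.16, but the groups overlapped and the difference of -0.18 ± 0.08 did not pass (adjusted p = 0.0676). KIF5B passed with a filter at the median, with a variance trend and at a threshold of 0.1 (lowest adjusted p by limma 0.0357).

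The heterotrimeric kinesin of cilia and vesicles combines KIF3A with KIF3B or KIF3C. KIF3C had 6.85, 6.75, 6.87 and 6.75 in the arrays labelled uninduced and 5.96, 5.97, 5.66 and 5.70 in those labelled induced, a difference of -0.98 ± 0.09 (adjusted p = 4.04e-06). KIF3B fell by 0.86 ± 0.09 (adjusted p = 1.23e-05), and its groups did not overlap. Their shared partner KIF3A was -0.22 ± 0.09 and did not pass (adjusted p = 0.0595); without uninduced replicate 3 or induced replicate 3 it did (0.0481 and 0.0274).

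KIF16B, which moves early endosomes, had 7.83, 7.78, 7.51 and 7.41 in the arrays labelled uninduced and 6.50, 5.82, 6.08 and 5.98 in those labelled induced. The groups were separate, with the induced B_1 array of last number 1 nearest to the uninduced ones, and the difference was -1.54 ± 0.12 (adjusted p = 8.75e-07). In the family of vesicle and mitochondrial motors, KIF1B was lower (-0.53 ± 0.08, adjusted p = 0.000234), while KIF1A (-0.03 ± 0.08) and KIF1C (-0.20 ± 0.08, adjusted p = 0.0676) did not pass. KIF1C passed without induced replicate 3 (adjusted p 0.0379).

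The 2 transport motors that rose did so in every array of the induced label. KIF21B, a motor that restrains microtubule growth, had 6.81, 6.81, 6.38 and 6.55 in the arrays labelled uninduced and 8.80, 8.48, 8.48 and 8.34 in those labelled induced. The lowest induced value was well above the highest uninduced one, and the difference was 1.89 ± 0.10 (adjusted p = 3.62e-08), or 3.70-fold. Its close relative KIF21A did not pass (-0.02 ± 0.10, adjusted p = 0.894). KIF13B, which carries membrane cargo with guanylate kinase-like adaptors, had 7.80, 7.96, 7.74 and 7.62 in the arrays labelled uninduced and 9.11, 9.32, 8.96 and 9.12 in those labelled induced, a difference of 1.35 ± 0.09 (adjusted p = 2.38e-07). KIF17, a dendritic and ciliary motor, was 0.12 ± 0.09 and did not pass.

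**Figure D3:**
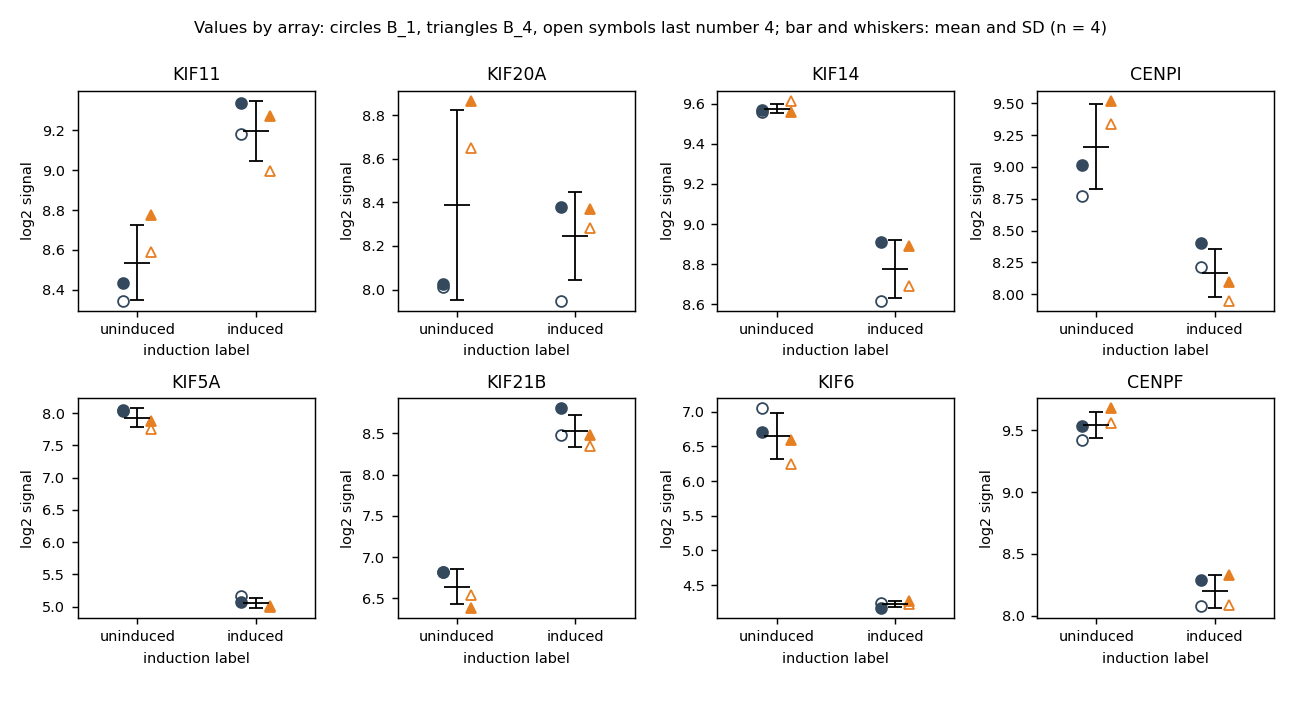
Log2 signal on each array for 8 genes by induction label (circles B_1, triangles B_4, open symbols last number 4; bar and whiskers give mean and SD, n = 4; axes do not start at 0). KIF5A, KIF6, KIF14, CENPF and KIF21B separate by label, KIF20A overlaps, and the B_4 triangles lie above the circles in the uninduced arrays of KIF11, KIF20A and CENPI.

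Of the 10 remaining kinesins, 8 did not differ detectably. KIF6, a ciliary kinesin, fell, with 6.70, 7.05, 6.60 and 6.25 in the arrays labelled uninduced and 4.17, 4.23, 4.28 and 4.22 in those labelled induced. The induced values were nearly equal (SD 0.04) and lay below the filter level, so KIF6 too was tested only through its uninduced signal. The measured difference was -2.42 ± 0.13 (adjusted p = 6.89e-08), and no fold is given at so dim a signal. KIF7, the ciliary-tip kinesin of Hedgehog signalling, had 6.67, 6.70, 6.75 and 6.66 in the arrays labelled uninduced and 5.83, 6.21, 6.01 and 6.36 in those labelled induced, a difference of -0.59 ± 0.10 (adjusted p = 0.000473). KIF27, a ciliary relative of KIF7, had 7.16, 6.74, 6.45 and 6.71 in the arrays labelled uninduced and 6.78, 6.85, 7.18 and 6.76 in those labelled induced. Its highest values were in 1 array of each label, and the difference of 0.13 ± 0.14 did not pass (adjusted p = 0.484); probe sets it shares with LOC389765 differed by 1.02 and 0.52. KIF9 was dim, with means of 4.91 in the arrays labelled uninduced and 4.64 in those labelled induced. The latter lay below the filter level, so KIF9 too was tested only through its uninduced signal. Its difference of -0.27 ± 0.14 did not pass (adjusted p = 0.126). KIF9 passed without uninduced replicate 4, without induced replicate 3 (0.0235 and 0.0464) and within B_1 (-0.59, 0.00179), all at this dim signal. KIF12, KIF19, KIF24, KIF25, KIF26A and KIF26B lay between -0.06 and 0.14, none past the threshold. Their means over the 8 arrays ran from 4.90 (KIF25) to 6.39 (KIF26A), beside column medians of 5.79 to 5.88. At signals this dim, a missing call does not show steady expression.

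Centromere proteins were called in both directions, and members of the CENP-H/I/K/M and CENP-O/P/Q/U complexes went opposite ways. CENPC, the reader of CENP-A nucleosomes, rose by 0.62 ± 0.09 (adjusted p = 0.000114). CENPA itself shares its gene-level probe set with SLC35F6 and was not counted; that probe set differed by -0.77, and the mean over 12 exon-level probe sets of CENPA by -0.48 ± 0.08 (adjusted p = 0.000476).

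In the CENP-H/I/K/M complex, CENPI had 9.01, 8.77, 9.52 and 9.34 in the arrays labelled uninduced and 8.40, 8.21, 8.10 and 7.95 in those labelled induced. The groups did not overlap, and the gap was wider in B_4; the difference was -0.99 ± 0.15 (adjusted p = 0.000179). CENPH had 6.56, 6.64, 6.59 and 6.43 in the arrays labelled uninduced and 6.32, 5.86, 5.85 and 5.49 in those labelled induced, falling by 0.68 ± 0.11 (adjusted p = 0.00037), least between the B_1 arrays with last number 1. Their partner CENPM rose by 0.57 ± 0.09 (adjusted p = 0.000265). CENPK had 8.46, 8.55, 8.73 and 8.55 in the arrays labelled uninduced and 8.95, 8.55, 8.63 and 8.51 in those labelled induced. A single induced array was high, and the difference of 0.09 ± 0.11 did not pass (adjusted p = 0.523).

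In the CENP-O/P/Q/U complex, which takes up the mitotic kinase PLK1, CENPU had 7.60, 7.65, 7.75 and 7.43 in the arrays labelled uninduced and 6.84, 6.68, 6.85 and 6.43 in those labelled induced. It was lower on every induced array, by 0.90 ± 0.095 (adjusted p = 1.22e-05). CENPO had 9.32, 9.31, 9.51 and 9.47 in the arrays labelled uninduced and 8.68, 8.45, 8.59 and 8.50 in those labelled induced, falling by 0.85 ± 0.085 (adjusted p = 8.38e-06). Their partner CENPP went the other way, with 6.23, 6.05, 6.36 and 6.18 in the arrays labelled uninduced and 7.11, 7.12, 7.21 and 6.86 in those labelled induced. That difference was 0.87 ± 0.09 (adjusted p = 1.25e-05), with separate groups. CENPQ did not pass (-0.12 ± 0.09, adjusted p = 0.295). ITGB3BP (CENP-R), the remaining subunit, whose symbol falls outside the rule, was 0.10 ± 0.11 (adjusted p = 0.531).

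In the histone-fold complex CENP-T/W/S/X, CENPW had 6.62, 6.54, 6.86 and 6.88 in the arrays labelled uninduced and 7.83, 7.24, 7.94 and 7.49 in those labelled induced. Its induced values varied more than its uninduced ones (SD 0.32 and 0.17) but did not overlap them, and the difference was 0.90 ± 0.11 (adjusted p = 4.01e-05). CENPX rose by 0.63 ± 0.09 (adjusted p = 0.000101), while CENPT was 0.06 ± 0.09 (adjusted p = 0.625, 95% interval -0.14 to 0.25). Of the remaining pair, CENPL was 0.33 ± 0.09 higher (adjusted p = 0.00852; 0.0601 on exon-level means), and CENPN, its partner, was -0.07 ± 0.11 (adjusted p = 0.629).

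Proteins outside the inner complex included the largest fall among the 18. CENPF, a large coiled-coil protein of the outer kinetochore that accumulates late in the cell cycle, had 9.53, 9.42, 9.68 and 9.56 in the arrays labelled uninduced and 8.29, 8.08, 8.33 and 8.08 in those labelled induced. No induced value came near an uninduced one; the difference was -1.35 ± 0.08 (adjusted p = 1.26e-07), 2.55-fold, and CENPF alone among the 18 was called with a 2-fold difference. CENPE, a kinesin despite its name, which carries chromosomes to the spindle equator, fell by 0.49 ± 0.09 (adjusted p = 0.00103; 0.05 within B_1). CENPV, linked to the spindle midzone, had 7.24, 7.38, 7.70 and 7.38 in the arrays labelled uninduced and 8.36, 7.95, 8.60 and 8.20 in those labelled induced, a difference of 0.85 ± 0.10 (adjusted p = 3.69e-05). CENPB, which binds a motif of alpha-satellite DNA, did not pass (0.08 ± 0.08, adjusted p = 0.437). Related symbols that the rule leaves out also differed: the pseudogene CENPBD1P was 8.12 ± 0.16 and 6.13 ± 0.25 (SD, n = 4 each), and the centriole gene CPAP, formerly CENPJ, was 7.34 and 8.80.

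In the arrays labelled uninduced, mitotic genes were mostly higher in B_4 than in B_1. Within a label this sets 2 arrays against 2, and genes measured on the same arrays are not replicates of a B code. Of the mitotic kinesins, 12 of 13 had a higher B_4 mean (median 0.28), beside 51.6% of all genes, and in 10 of them both B_4 arrays were above both B_1 arrays, which was so for 27.5% of all genes. In the arrays labelled induced, 2 of 13 were higher in B_4 (median -0.05), beside 52.8% of all genes, and 0 were separated upward, beside 14.2%. Of the centromere proteins, 14 of 18 were higher in B_4 among the uninduced arrays (median 0.16, 11 separated) and 6 of 18 among the induced ones (median -0.08). Of the transport kinesins, 7 of 14 were higher in B_4 in the uninduced arrays (median -0.06), with 7 separated downward, beside 28.6% of all genes, and 5 of 14 in the induced ones. The general cell cycle genes on the list of G2/M regulators were higher in B_4 in 14 of 18 (median 0.14) and 8 of 18 (median -0.05), and their part in the result was not tested.

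KIF20A had the widest such gap, with 8.02 in B_1 and 8.76 in B_4 among uninduced arrays, and 8.16 and 8.33 among induced ones. KIF4A was 9.23 and 9.70 in the uninduced arrays and 8.94 and 8.88 in the induced ones. KIF14, by contrast, was 9.57 and 9.59 in the uninduced arrays of B_1 and B_4.

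**Figure D4:**
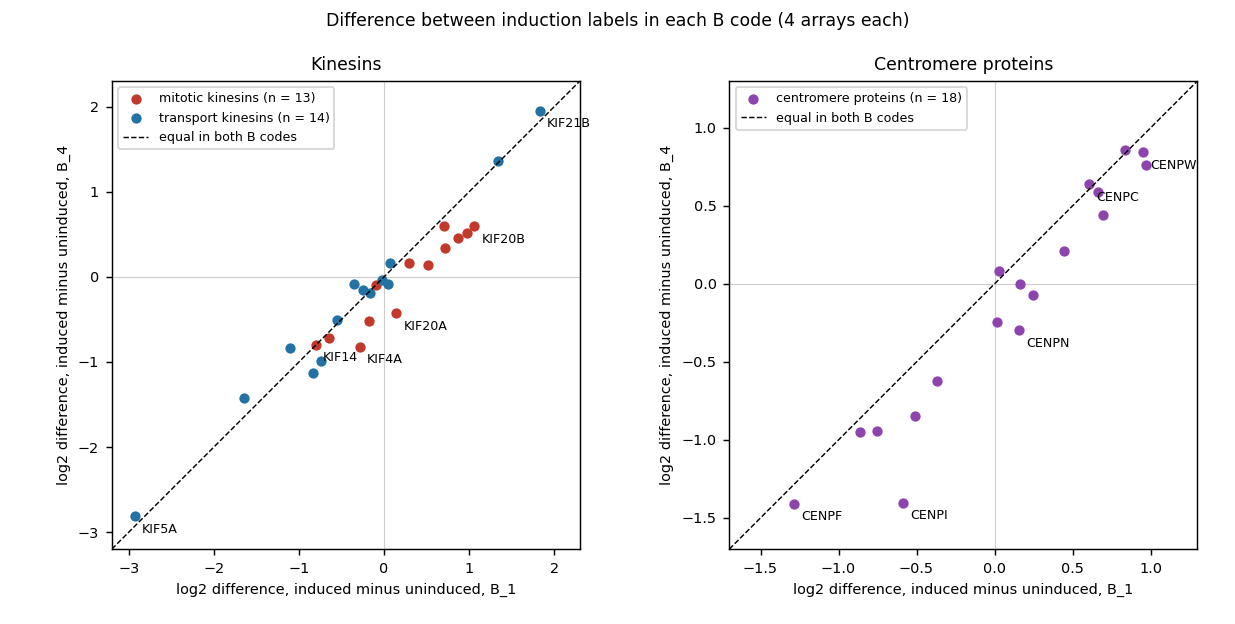
Log2 difference between the induction labels within B_1 (horizontal) and within B_4 (vertical), for kinesins at left and centromere proteins at right; each value rests on 4 arrays, and the dashed line marks equal differences. Mitotic kinesins lie below the line in 12 of 13 cases and centromere proteins in 15 of 18, while transport kinesins lie on both sides.

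The induction difference was lower in B_4 than in B_1 for 12 of 13 mitotic kinesins (median -0.37), 15 of 18 centromere proteins (median -0.20) and 5 of 14 transport kinesins (median 0.07), against 48.2% of all genes. These values follow from the gaps between B codes given above for each label, so they restate that pattern and are no further result. At an unadjusted p under 0.05, the interaction was negative for 7 mitotic kinesins (KIF4A, KIF11, KIF15, KIF18B, KIF20A, KIF20B and KIF22), 2 centromere proteins (CENPI and CENPN) and 0 transport kinesins, beside 5.07% of all genes. Among the other kinesins, 3 of 10 were under that p in either direction, beside 11.9% of all genes. KIF19 was negative (-0.41). KIF9 (0.64) and KIF6 (0.50) were positive, both with induced means below the filter level for gene means. After adjustment over all genes by limma, 0 of the 55 passed, beside 0.297% of all genes, and the lowest was CENPI (-0.82 ± 0.15, adjusted p = 0.0666). The B code by itself gave 0 calls over all 13796 genes by limma (8 of the 55 at an unadjusted p under 0.05, beside 13.9% of all genes). Fitted within B_1, 6 mitotic kinesins were higher and 2 lower; within B_4, 4 were higher and 5 lower, KIF20A among the latter (-0.43, adjusted p = 0.0173; interaction -0.57 ± 0.18, adjusted p = 0.237). KIF4A and KIF23 were not called within B_1 (-0.29 and -0.17, adjusted p 0.129 and 0.384), and KIF22 was not within B_4 (0.14, adjusted p 0.414). In the transport class the counts were 2 higher and 6 lower in each B code.

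Exon-level probe sets, a second summary of the same arrays, followed the gene-level direction. A filter at the 25th percentile was applied to them too. Of 33 called genes with such probe sets (CENPX had none), 33 had a median in the same direction, as did 643 of the 686 probe sets above the filter (93.7%). Both summaries come from the same arrays and only called genes were counted, so this agreement is no independent support. The share over all called genes is not given here. KIF22 entered with 31 probe sets, most of them in identical copies. All 38 probe sets of KIF13B above the filter, 36 of KIF21B and 32 of KIF5A pointed the same way. The size varied within genes. In KIF5A the probe sets ran from -5.93 to -0.22, and the lowest went from 9.41 ± 0.32 to 3.48 ± 0.28 (SD, n = 4 each). One CENPF probe set fell from 10.17 ± 0.21 to 3.78 ± 0.77, a difference of -6.39, while its other probe sets lay between -2.64 and -0.96. In KIF6, 1 probe set rose from 5.58 ± 0.34 to 7.15 ± 0.50, while the others ran from -6.89 to 0.09. These extremes were picked after their values were seen, and no call of exon usage is made.

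**Figure D5:**
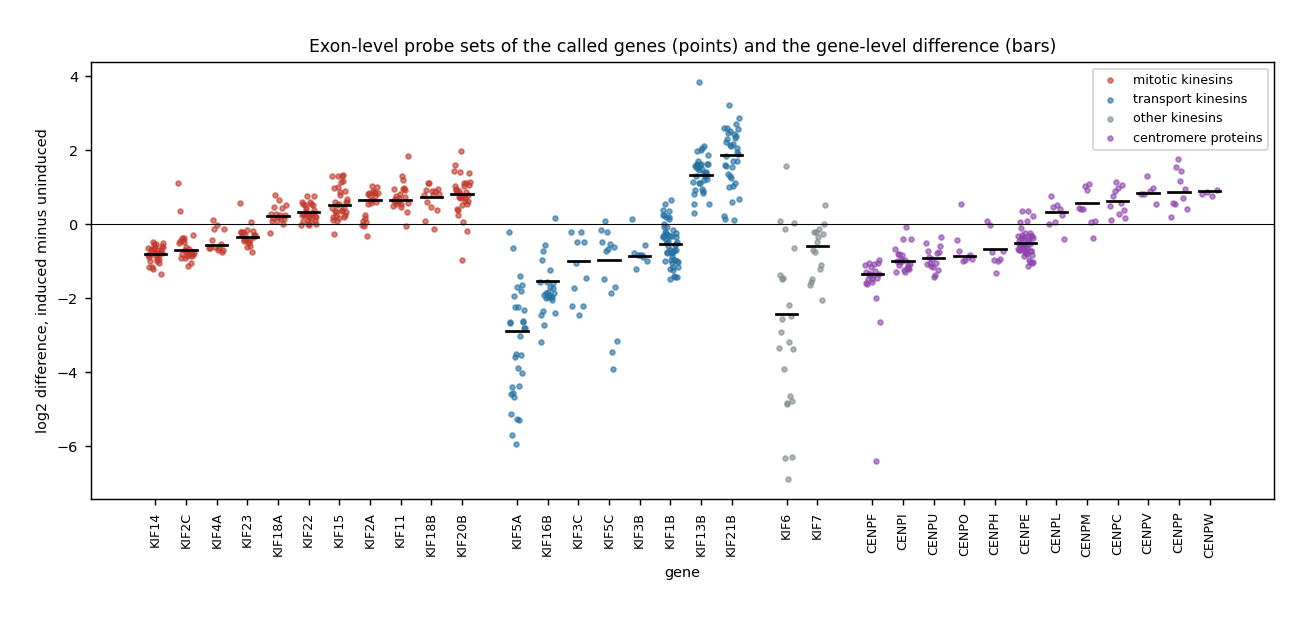
Log2 difference, arrays labelled induced minus uninduced, of each exon-level probe set (points) of the called genes, with the gene-level difference as a bar. Points of some genes lie on both sides of 0, such as KIF20B (-0.96 to 1.98) and KIF2C (-1.12 to 1.12), those of KIF5A and KIF6 spread over more than 5 log2 units, and a single CENPF point lies at -6.39.

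Partners of these genes were read from lists by role, beside 27.1% of all genes called higher and 28.4% called lower. Around the mitotic kinesins, 5 of 12 spindle and cleavage partners were higher and 4 lower. Among the higher were the citron kinase CIT that binds KIF14 (1.53 ± 0.08), DLGAP5 (1.75 ± 0.13) and NUSAP1 (0.86 ± 0.09). The 4 lower were TPX2 (-0.80 ± 0.08), the motor KIFC1 (-0.47 ± 0.13), HMMR (-0.38 ± 0.09) and AURKA (-0.35 ± 0.10). Of 6 chromosomal passenger and shugoshin genes, 5 were higher, including AURKB (0.56 ± 0.10), SGO2 (0.63 ± 0.10) and SGO1 (0.41 ± 0.09), and CDCA8 was lower. At the outer kinetochore 6 of 13 were higher and 4 lower, with KNL1 (1.02 ± 0.09) and SPDL1 (0.83 ± 0.08) up and NSL1 (-1.09 ± 0.10) down. Checkpoint and corona genes had 5 higher and 1 lower of 10, led by BUB1B (1.58 ± 0.11), KNTC1 (1.41 ± 0.08) and ZWILCH (1.40 ± 0.10). Of 6 tested CENP-A loading genes, MIS18A (0.67 ± 0.08) and NPM1 (0.40 ± 0.08) were among 3 higher, and the chaperone HJURP was lower (-0.76 ± 0.12).

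Next to the transport kinesins stood a list of 17 light chains, adaptors and the motors KIFC2 (-0.70 ± 0.15, lower) and KIFC3 (not passing). Of these 2 were called higher and 7 lower, beside the same 27.1% and 28.4% of all genes. Among the lower were KLC1, a light chain of conventional kinesin (-0.96 ± 0.09), KIFAP3, which joins the KIF3 motors (-0.72 ± 0.09), and MADD, an adaptor of KIF1B (-1.01 ± 0.08). The 2 higher were the light chain KLC2 (0.65 ± 0.09) and RHOT2 (0.49 ± 0.09). Of the other light chains, KLC4 was lower (-0.37 ± 0.08) and KLC3 did not pass (0.06 ± 0.08). Of 15 tested genes of dynein and dynactin, which move cargo the other way, 10 were lower and 1 higher, with DYNLT3 (-2.76 ± 0.10), DCTN2 (-1.54 ± 0.08) and DCTN5 (-0.96 ± 0.08) lowest in p. G2/M regulators were called equally often in each direction (6 and 6 of 18): CCNF rose (0.99 ± 0.11), and CDC25C (-0.96 ± 0.09) and CCNB1 (-0.72 ± 0.09) fell.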

How the data were processed

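L1236 total RNA, extracted with TRIZOL and labelled with biotin, was hybridised to 8 arrays of Affymetrix's whole-transcript type, as the labels' protocols say. The authors deposited log2 values: the submitters' processing notes name RMA and Partek with no version, and the value range (2.07 to 14.1) was read as base 2. RMA equalises the distributions of arrays, so a global shift would be removed. Genome build and annotation version: not given in the sources used here. A platform annotation named probe sets, with symbols updated through RefSeq (GRCh38.p14).

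The probe set of highest mean stood for a gene, and a filter at the 25th percentile of gene means left 13796 tested genes. Limma 3.58.1 (R 4.3.3) modelled induction label with B code and last number as covariates over 8 arrays, p-values adjusted by Benjamini-Hochberg over all 13796, and a threshold of 0.05; the interaction with B code had its own fit, and every p for a gene comes from limma, except an exact permutation p for RELB. The 16 deposited samples are 2 summaries of 8 arrays. Scripts were checked on data with known answers; exon usage (diffSplice) made many false calls there, so its calls are not reported. Figures used matplotlib 3.10.9.

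The genes and lists were chosen with earlier results of these data known. Values per array are given for the called genes with the largest differences of each class and the uncalled gene of highest mean. The limits for called genes were 8 mitotic, 6 transport, 3 other and 8 centromere. Of partner lists, the 3 lowest p are named, and some further genes. The alternatives tried were other filters, quantile normalisation or centring on medians, probe set means, exon-level means, a variance trend, a threshold of 0.1, pair blocks, no covariates, each array left out, each B code alone, and other class limits.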

Additional observations from a re-analysis of the deposited data

Results flagged for a closer look

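Each group of 4 arrays was examined for a value far from the other three, for the 55 tested genes (110 groups). Chance gives such a value in about 1 of 20 groups, and 2 were found. CENPN, a partner of CENPL at the centromere, had 8.67 on the induced array of B_1 with last number 1 (replicate 1), while the other induced arrays had 8.37, 8.41 and 8.38; the gap was 0.873 of the range. KIF15, a spindle motor, had 6.69 on the uninduced array of B_1 with last number 4 (replicate 2), against 6.96, 7.0 and 6.98 on the others; the gap was 0.855 of the range. What sets these values apart was not tested.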

How the results depend on the processing

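Of the 34 called genes, 27 kept direction and call under every alternative run (up to 21 for a gene), 7 lost the call at least once (CENPE, CENPL, KIF4A, KIF15, KIF18A, KIF22 and KIF23), and 0 reversed; 9 of the 21 uncalled genes gained one. Counts that moved by over 1.5 times were those of mitotic kinesins higher within B_4 (4) and lower within B_1 (2), other kinesins higher after quantile normalisation or median centring (2 each: KIF12 and KIF25) and lower with a filter at the median (1, of 3 tested), and interaction calls with that filter or a threshold of 0.1 (1 each). Median centring called 5660 genes higher in place of 3744. Scaling moved the median of all genes from 0.02 to 0.10 (quantile) and 0.17 (centring), and the share of higher calls from 48.9% to 55.8% and 65.1%, while members went from 16 higher and 18 lower to 18 and 18 and to 20 and 17; the sign changed only in genes without a call (KIF1A, KIF2B, KIF19, KIF24, KIF26A and KIF26B under both, and CENPN, CENPQ, KIF20A and KIF21A under centring). Leaving out 1 array gave 5 to 7 mitotic kinesins higher and 3 to 4 lower, and 6 to 8 transport kinesins lower. Deviations of same-numbered arrays had r of 0.158, -0.021, 0.114 and 0.022, within the range of the other combinations (-0.327 to 0.191). With 4 arrays a group this cannot decide whether the numbers pair them. With the pair as a fixed or random replicate block, 6 mitotic kinesins were higher and 4 lower, KIF18A losing its call (0.22, adjusted p 0.0593 and 0.0678). Without KIF2A the mitotic counts were 6 and 4, and with CENPE 7 and 5. With 4 arrays a group, small differences and interactions can be missed.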
